A study of Mus musculus with 6 samples.

Results

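To ask how transcription responds when ASH2L is taken away within hours, newly made RNA was compared between untreated iMEF cells and iMEF cells after 8 h of dTAG-13. The genes described here are the 9977 whose mean normalised value over the untreated and 8 h libraries was at least 100, out of 55401 genes listed. iMEF cells are immortalised mouse embryo fibroblasts. In all groups the endogenous Ash2l alleles had been inactivated by removal of an exon, and the cells lived on FKBP-HA2-ASH2L, a lentivirally expressed human ASH2L with an FKBP tag. dTAG-13 ties this tag to a ubiquitin ligase, so that the fusion protein is degraded. There were 2 untreated samples, 2 after 8 h and 2 after 4 h, the last used only for values set side by side. The study worked with clones of such cells, the labels do not name the clone used here, and no group treated with dTAG-13 lacked the FKBP tag. The cells took up an ethynyl-labelled nucleoside, and labelled RNA was biotinylated, captured, selected for poly-A and sequenced. The labels do not tell whether the 2 samples of a group were grown apart, and the p-values given here reflect no more than the spread of these samples, which could be technical.

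Within the COMPASS complexes ASH2L joins WDR5, RBBP5 and DPY30 to a KMT2 methyltransferase. These enzymes place methyl groups on lysine 4 of histone H3, and the trimethylated form marks active promoters, most of them rich in CpG. Labelled RNA reports what was transcribed during a short window, so that it can move before the pool of stored mRNA does.

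Each library's normalised values were rebuilt from the deposited means, as whole numbers divided by a size factor, and libraries are called A and B within a group because no replicate number could be tied to them. Over genes with a single solution the rebuilt numbers added up to 13980922 and 9903306 for untreated cells, and to 33257999 and 23359713 for 8 h. These sums ran with the groups, and they are not read totals because the numbers of some libraries skipped values. The size factors in the deposited means differed by at most 0.0097% from those that set the median ratio between libraries over genes. The median difference is therefore near 0 by construction, and a change shared by most genes cannot be seen in these values. Fibroblast markers fitted the label: 14 of 14 were among the genes described, with sums from 519155 to 528344 per library. Of the epithelial markers 3 of 6 were members, with sums from 1010 to 1178, and Krt5 and Krt14 were listed at 0. Of the blood markers 0 of 6 reached a mean of 100, Myod1, Myog and Des were listed at 0 in the 4 libraries, and so were Pou5f1, Sox2 and Zfp42. Of the endothelial markers 4 of 4 were members too, with sums from 8752 to 10130 per library. Pecam1 was at 6096 and 5640.2 untreated against 6389.6 and 6359 at 8 h, and Cdh5 at 2709 and 2746 untreated against 2813 and 3154 at 8 h. The groups overlapped for Kdr, at 204 and 178 untreated against 185 and 167 at 8 h. They also overlapped for Tek, at 333 and 187 untreated against 267 and 450 at 8 h. Mouse Ash2l itself stood at 900.5 and 711 untreated against 928 and 1192 at 8 h (log2 fold change 0.39, SE 0.22), which checks nothing about the treatment, because dTAG-13 removes a protein encoded elsewhere. In bulk RNA, fewer cells of a type and less RNA per cell cannot be told apart.

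The promoters of 2 higher and 2 lower genes are shown here, since promoters are where COMPASS acts. They belong to the genes with the smallest p in each direction among those with a single RefSeq promoter window. Hnrnpf and Ddx39, which have a smaller p than Tlr2, were passed over for this reason. Shown are the 250 bases before the RefSeq start on GRCm38.p6, read 5′ to 3′ on the gene's strand, with each CG in capitals. The GENCODE annotation places some starts elsewhere. It starts Mrpl46 at 78783531, so that all bases shown for it lie inside the GENCODE gene. Tlr2 starts there at 83841767 and Snrpe at 133610291, so that their bases lie partly inside. The motif searched was CG, which reads the same on both strands, and 92.1% of all 32851 RefSeq windows held at least 1 in these bases, with a median of 6 and quartiles of 2 and 16.
Mrpl46 (chr7:78783090-78783339, minus strand, 9 CG): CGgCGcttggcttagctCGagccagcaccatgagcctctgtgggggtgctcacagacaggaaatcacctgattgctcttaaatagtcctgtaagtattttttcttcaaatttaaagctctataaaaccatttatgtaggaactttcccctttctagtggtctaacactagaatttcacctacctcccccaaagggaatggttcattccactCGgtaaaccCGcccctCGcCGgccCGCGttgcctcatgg
Nudt4 (chr10:95564147-95564396, minus strand, 33 CG): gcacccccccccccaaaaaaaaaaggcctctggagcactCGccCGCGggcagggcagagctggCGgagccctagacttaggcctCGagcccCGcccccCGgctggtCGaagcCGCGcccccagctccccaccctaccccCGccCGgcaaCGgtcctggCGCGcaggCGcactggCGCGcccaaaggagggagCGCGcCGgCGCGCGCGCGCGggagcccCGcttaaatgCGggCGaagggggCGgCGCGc
Snrpe (chr1:133610281-133610530, minus strand, 19 CG): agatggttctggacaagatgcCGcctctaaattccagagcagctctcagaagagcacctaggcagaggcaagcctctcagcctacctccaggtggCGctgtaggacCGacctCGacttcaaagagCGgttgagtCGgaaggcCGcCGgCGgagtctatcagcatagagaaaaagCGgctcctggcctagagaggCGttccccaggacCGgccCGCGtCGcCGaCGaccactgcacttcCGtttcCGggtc
Tlr2 (chr3:83841609-83841858, minus strand, 11 CG): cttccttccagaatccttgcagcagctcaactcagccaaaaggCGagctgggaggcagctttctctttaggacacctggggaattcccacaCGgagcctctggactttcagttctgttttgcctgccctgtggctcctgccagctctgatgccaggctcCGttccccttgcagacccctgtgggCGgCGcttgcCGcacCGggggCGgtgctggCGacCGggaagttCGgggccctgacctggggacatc
All 4 hold more CG than the median window, and Nudt4 and Snrpe, higher and lower at 8 h, are both above the upper quartile. These windows are not limited to the members, so this does not show a trait particular to the 4 genes. A comparison of all members by promoter CpG content was void, as only 62.1% of them matched a single promoter window.

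Across the 9977 genes, no difference in labelled RNA between 8 h and untreated cells passed the test. With limma and Benjamini-Hochberg adjustment over the 15223 genes tested, 0 members were called higher and 0 lower at an adjusted p below 0.05, against 0% of all genes tested in each direction. The lowest adjusted p was 0.883. At an unadjusted p below 0.05, 227 members were higher and 252 lower, or 2.28% and 2.53%, and over all genes tested the shares were 2.28% and 2.3%. limma without a mean-variance trend called 53 genes higher and 42 lower (0.348% and 0.276%), of which 0 were members. With voom weights it called 1 gene (0.00657%), mt-Cytb, a respiratory chain subunit encoded in mitochondrial DNA (log2 fold change 0.09, adjusted p = 0.0146 in limma with voom weights). This gene is among the 8 members, the lowest of them at a mean of 119852, for which the deposited means fit more than 1 set of library values. Of its 7 sets the one with the least spread within groups was taken, which lowers its error. The untreated and 8 h libraries did not overlap for 1732 members that were higher and 1747 that were lower. These are 17.4% and 17.5% of members, beside 17.7% and 16.6% of all genes tested.

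The split between directions rested on the scaling. Libraries scaled to equal upper quartiles moved the median log2 fold change of the members from 0.00 to 0.09, and the counts at an unadjusted p below 0.05 from 227 higher and 252 lower to 522 and 108. The quartiles were taken over the values above 0 in each library, and the sums of the libraries ran with the groups. The part of this in the shift was not tested. The share of higher genes among those counted went from 47.4% to 82.9%. Leaving out 1 library moved it as well: 330 higher and 200 lower without untreated library A, 190 and 113 without untreated library B, 61 and 148 without 8 h library A, and 72 and 177 without 8 h library B.

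The size of the differences followed the expression level. Of the 2651 members with a mean from 100 to 300, the middle 50% of the log2 fold changes lay between -0.38 and 0.35, and the median standard error was 0.49. Of the 3681 with a mean from 300 to 1000 the middle 50% lay between -0.21 and 0.21, and of the 2419 from 1000 to 3000 between -0.13 and 0.12. The 974 members from 3000 to 10000 had a middle 50% from -0.09 to 0.08, and the 252 at 10000 or more from -0.07 to 0.05. The median standard error was 0.49, 0.27, 0.16, 0.10 and 0.06 in the 5 bins, and in all but the highest the middle 50% lay within 1 median standard error of 0. Differences of more than 2-fold were seen for 267 members, 135 higher and 132 lower, and 258 of these had a mean under 300. Among the 252 members at 10000 or more, 9 were higher and 16 lower at an unadjusted p below 0.05. The member closest to the limit of 100 was 1700048O20Rik at a mean of 100.1 (log2 fold change 0.50), and the nearest gene outside it was Ppp2r5d at 99.9 (0.93).

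**Figure D1:**
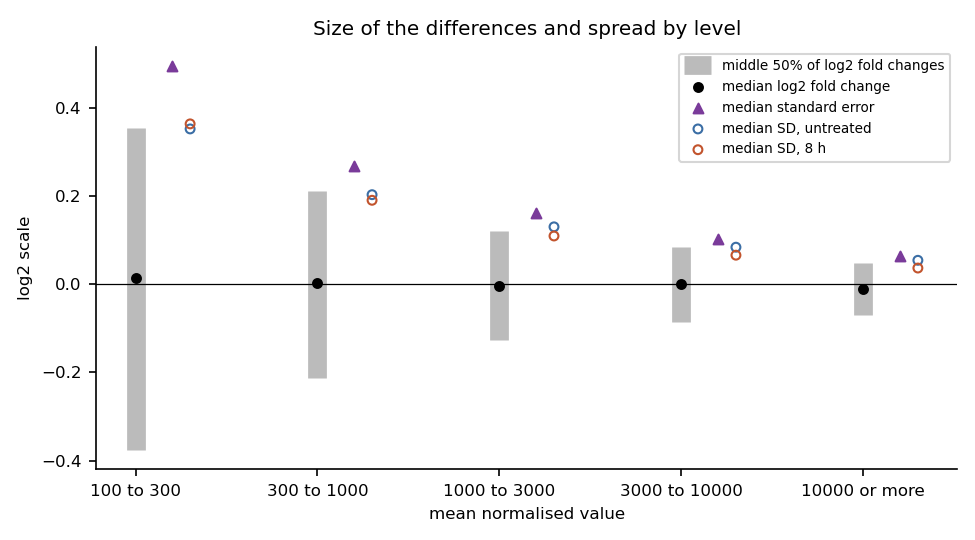
The x axis gives bins of the mean normalised value and the y axis is on the log2 scale. Grey bars are the middle 50% of the log2 fold changes of 8 h against untreated, black points their medians, triangles the median standard error and open circles the median SD between the libraries of a group, and bars, triangles and circles shrink from the lowest bin to the highest, from a standard error of 0.49 to 0.06.

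**Figure D2:**
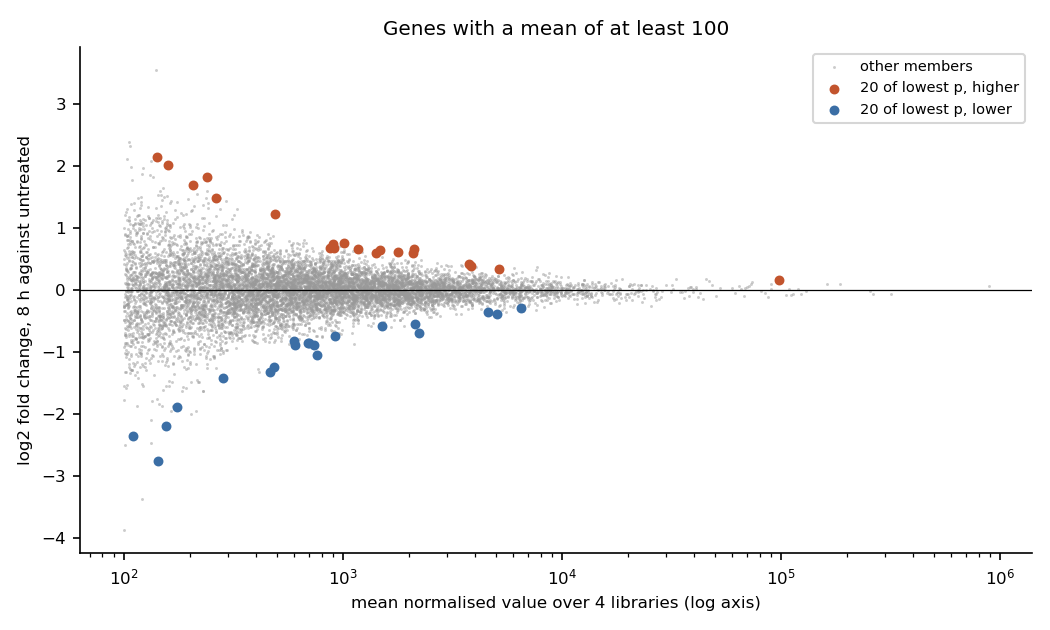
Each point is 1 of the 9977 genes, with the mean normalised value over 4 libraries on a log x axis and the log2 fold change of 8 h against untreated on the y axis. The 20 genes of lowest unadjusted p in each direction are coloured, and they lie between -2.76 and 2.14 at means from 110 to 98021.

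The 40 genes named next are the 20 of lowest unadjusted p in each direction. None was called (adjusted p = 0.883 for each, limma). Values are normalised values of libraries A and B in each group, and fold changes are on the scale of log2(value + 1), which understates those of low genes. Coordinates are those of the GENCODE annotation on GRCm38. The 40 were picked for differing between these libraries, so that their groups do not overlap is no further result. Among genes that serve RNA and ribosome production, Mrpl46, a protein of the large subunit of the mitochondrial ribosome (chr7:78775236-78783531), stood at 299 and 285 untreated against 733 and 643 at 8 h. The difference was 2.34-fold (log2 fold change 1.23, SE 0.26, unadjusted p = 0.00173 in limma). Both 8 h libraries stood well above both untreated ones. Rbm19, needed for the processing of ribosomal RNA, was at 98.9 and 111 untreated against 418 and 332 at 8 h. Shq1, an assembly factor of the particles that modify ribosomal RNA, was at 64.2 and 60 untreated against 297 and 215 at 8 h. Their log2 fold changes were 1.82 (SE 0.40) and 2.01 (SE 0.51), among the largest of the 40. Snrpd3 encodes a protein of the Sm core of spliceosomal particles and stood at 1189 and 1112 untreated against 1775 and 1814 at 8 h. Small mitochondrial ribosomal RNA, mt-Rnr1, was at 95619.9 and 89926 untreated against 102548 and 103990.0 at 8 h, a difference of only 1.11-fold between groups that each spread little.

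The other higher members had varied roles. Nudt4 (chr10:95547007-95564146), a phosphohydrolase of diphosphoinositol polyphosphates, was at 1766 and 1578 untreated against 2526 and 2521 at 8 h (log2 fold change 0.60, SE 0.13). Prmt1, the main enzyme of asymmetric arginine dimethylation, was at 3353 and 3125 untreated against 4298 and 4344 at 8 h, and its 2 libraries of 8 h differed from each other less than those of untreated cells. Ackr3, an atypical receptor that scavenges the chemokine CXCL12, was at 4488 and 4599 untreated against 5788 and 5686 at 8 h. These well-expressed genes differed by 1.51-fold, 1.33-fold and 1.26-fold. Ttc12, a factor for the assembly of dynein arms, was at 56.5 and 47.3 untreated against 223 and 239 at 8 h. Rab23, a GTPase known to hold back Hedgehog signals, was at 108 and 171 untreated against 324 and 449 at 8 h. These have means under 300, where the median standard error was 0.49. Tkt, the transketolase of the pentose phosphate pathway, stood at 1579 and 1256 untreated against 2291 and 2006 at 8 h, and Stard7, which carries phosphatidylcholine to mitochondria, at 671 and 671 untreated against 1129 and 1023 at 8 h. The complex I subunit gene Ndufb4 was at 1225 and 1038 untreated against 1586 and 1809.6 at 8 h. In all of them the lower 8 h library lay above the higher untreated one. Gpatch8, Eid2, Ifitm2, Dhrs7, Rnf103, 2700097O09Rik and the processed pseudogene Gm4997 completed the 20, with log2 fold changes from 0.39 to 1.70.

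Several of the lower members handle RNA. Snrpe (chr1:133603871-133610291), a partner of Snrpd3 in the same Sm core, was at 2639.7 and 2843 untreated against 1516 and 1886 at 8 h (log2 fold change -0.70, SE 0.15, unadjusted p = 0.00187 in limma). Snrpd3 and Snrpe thus lay on opposite sides of untreated cells. Hnrnpf, a splicing regulator that binds runs of G, was at 689 and 671 untreated against 262 and 315 at 8 h. Its difference was 2.36-fold. The RNA helicase genes Ddx39, whose product acts in mRNA export, and Dhx35 were lower as well, Ddx39 at 593 and 733 untreated against 312 and 220.4 at 8 h and Dhx35 at 226 and 333 untreated against 71.8 and 73.7 at 8 h. Of the ribosomal protein genes, Rpl22l1 was at 1092 and 1209 untreated against 638 and 739.7 at 8 h and Rps23 at 5522 and 5893 untreated against 4107 and 4654 at 8 h. Rpl22l1 is a close paralogue of Rpl22, which was higher at 8 h (9994 and 9894 untreated against 11327 and 11588 at 8 h, log2 fold change 0.20, SE 0.07).

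Tlr2 (chr3:83836272-83841767), a receptor for bacterial lipoproteins, had the lowest log2 fold change of the 40. It stood at 175 and 331 untreated against 41 and 29.2 at 8 h (6.78-fold lower, log2 fold change -2.76, SE 0.64, unadjusted p = 0.00303 in limma). The untreated libraries stood far apart from each other, and both 8 h libraries lay below the lower of them. The 6 blood markers summed to 216 and 258 in untreated cells and to 120.3 and 162 at 8 h. Among them Adgre1 was at 75.8 and 162 untreated against 22.1 and 13.8 at 8 h, and Cd68 at 129.7 and 63.6 untreated against 32.4 and 38.4 at 8 h. Ptprc and Itgam did not follow, with Ptprc at 0 and 32.7 untreated against 44.8 and 34.6 at 8 h and Itgam at 10.3 and 0 untreated against 21 and 75.3 at 8 h. Cd3e was at 0 in the 4 libraries. The part of such cells in the Tlr2 values was not tested. Tubb3, on the list of neural markers, was also lower, at 462 and 282 untreated against 189 and 185 at 8 h.

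Of the lower members, 4 are described next for their roles in membrane traffic, and Rab23, among the higher members, has such a role too. Vps13c, a lipid transfer protein, was at 304 and 211 untreated against 63.1 and 46.9 at 8 h (log2 fold change -2.20, SE 0.54). Trappc11, of the TRAPP tethering complex, was at 1038 and 885 untreated against 509 and 521 at 8 h. Snx9, a sorting nexin of endocytosis, was at 1870.3 and 1769 untreated against 1210.1 and 1217 at 8 h, and Rab11fip5, an effector of Rab11, at 895 and 903 untreated against 466 and 532 at 8 h. The 8 h libraries of Trappc11 and of Snx9 agreed closely with each other. Cdca5, which encodes the cohesion factor sororin, was at 175 and 193 untreated against 44.2 and 27.7 at 8 h (log2 fold change -2.36, SE 0.65). Cap1, which recycles actin monomers, was at 2474 and 2612 untreated against 1909.8 and 1584 at 8 h. Gdf6, a ligand of the BMP family, and Adam9, a membrane metalloprotease, had high levels and small differences. Gdf6 stood at 4998 and 5320.3 untreated against 4014 and 4026 at 8 h, and Adam9 at 7068 and 7249 untreated against 5873 and 5846 at 8 h. Ric8a, Anks1, Nfu1, Camta1 and the proteasomal ubiquitin receptor gene Adrm1 made up the rest, with log2 fold changes from -1.42 to -0.83. Of the 40 genes, 10 overlap another tested gene, 8 of these on the other strand, and Hnrnpf, Ddx39, Ric8a, Camta1, Snrpd3 and Mrpl46 are among them. Their values are uncertain, as the sources used here do not tell whether reads were counted by strand. Sm, hnRNP and ribosomal protein genes can also share reads with processed copies.

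**Figure D3:**
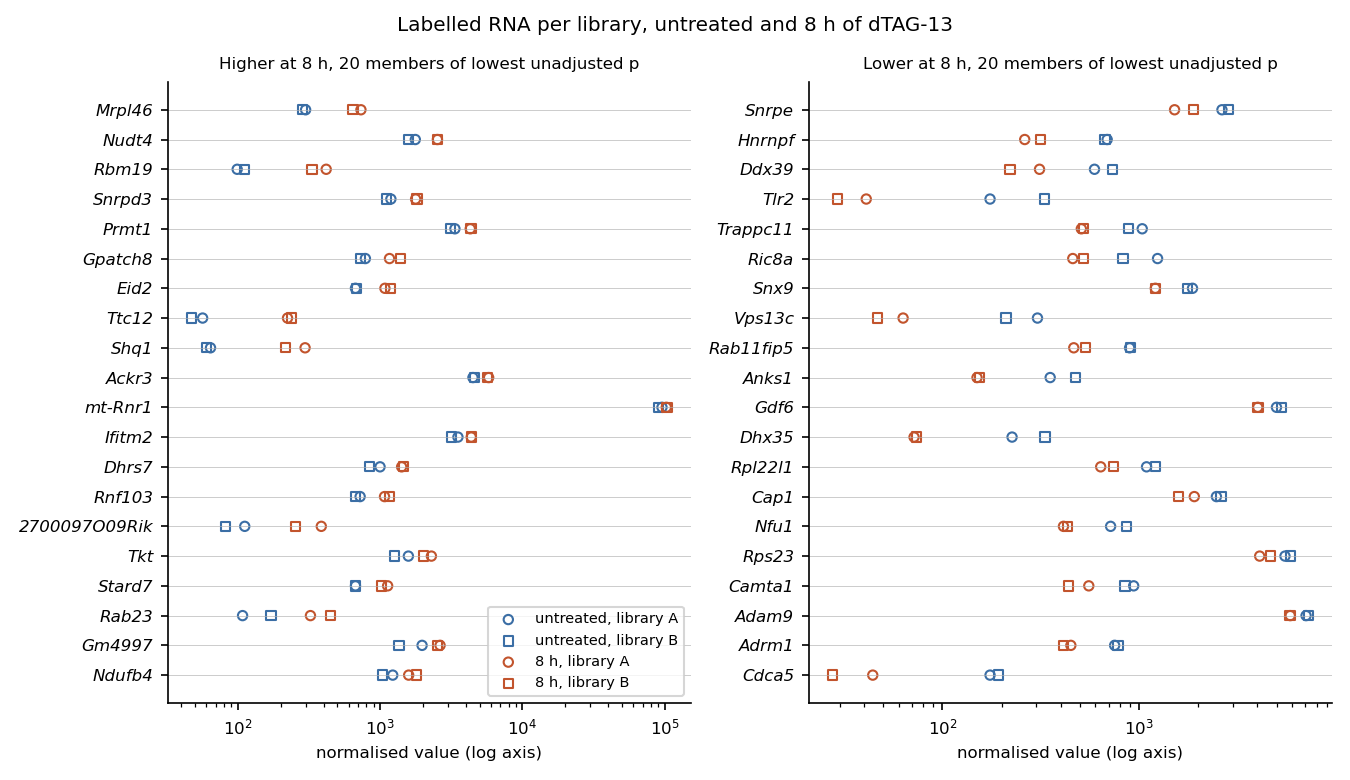
Normalised values of the 40 genes in each of the 4 libraries, on log x axes that differ between the panels, with untreated libraries in blue and 8 h libraries in orange, circles for library A and squares for library B. For Tlr2 the untreated points are at 175 and 331 and the 8 h points at 41 and 29.2, and for mt-Rnr1 the groups lie within 1.11-fold of each other.

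The 4 h samples were normalised separately and against the same untreated libraries, so their values are set beside those at 8 h without a test. On the scale of the 4 h table, Shq1 was at 53.7 and 50.5 untreated against 221 and 230.5 at 4 h, and Rab23 at 90.3 and 144 untreated against 301 and 456 at 4 h. Rbm19 was at 82.8 and 93.4 untreated against 229 and 50.9 at 4 h, with 1 library above and 1 below both untreated ones. Tlr2 was at 146 and 279 untreated against 60.4 and 124 at 4 h, below both untreated libraries. For Dhrs7, at 835 and 708 untreated against 771 and 749 at 4 h, and for Ndufb4, at 1025 and 874 untreated against 1017 and 904 at 4 h, the 4 h libraries overlapped the untreated ones, while at 8 h they did not (998 and 839.8 untreated against 1416 and 1463 at 8 h for Dhrs7).

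By function, genes of cytosolic ribosomal proteins gave the counts furthest from even among the 39 lists. Of 81 such genes, 16 were lower and 2 higher at an unadjusted p below 0.05, beside 2.53% and 2.28% of all members, and 0 were called. The untreated and 8 h libraries did not overlap for 29 lower (35.8%) and 10 higher genes (12.3%), beside 17.5% and 17.4% of all members, and 59 of the 81 log2 fold changes were below 0. The differences were small, with a median of -0.07 against 0.00 for all members. Rps23 and Rpl22l1 are given above. Rpl32, of the large subunit, was at 7538 and 7752 untreated against 6284 and 6459 at 8 h (log2 fold change -0.26, SE 0.08). Rps4x was at 4852 and 6086 untreated against 4046 and 4204 at 8 h, and Rpl23 at 18907 and 20242 untreated against 17642 and 16009 at 8 h. In each of these the groups stood apart, by 1.2-fold, 1.32-fold and 1.16-fold. Rps28, at 9407 and 8061 untreated against 10446 and 9827 at 8 h, and Rpl22 were the 2 higher ones. Because such genes have high levels and small errors, they were set beside the members with a mean of at least 3000 that belong neither to them nor to nuclear oxidative phosphorylation. There 13 of 65 ribosomal protein genes (20%) were lower at an unadjusted p below 0.05 and 31 of 1123 of the others (2.76%). With equal sums the median stayed at -0.07, and 16 were lower and 2 higher. With equal upper quartiles it was 0.02, and 4 were lower and 6 higher. Under that scaling the median of all 9977 members was 0.09, with 108 lower and 522 higher. In limma without a mean-variance trend, 140 of all members were lower and 120 higher. Of the 81 ribosomal protein genes, 1 was then lower and 0 higher. Without 8 h library A the count of lower genes was 2, without 8 h library B 6, without untreated library B 5 and without untreated library A 14.

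Of 75 nuclear genes of oxidative phosphorylation, 24 were lower (32%) and 7 higher (9.33%) without overlap between groups, beside 17.5% and 17.4% of all members. At an unadjusted p below 0.05 the counts were 5 lower (6.67%) and 2 higher (2.67%), beside 2.53% and 2.28% of all members. The median of -0.05 was the same with equal sums and 0.04 with equal upper quartiles, beside 0.09 for all members under the latter. In limma without a mean-variance trend, 2 of the 75 were lower and 0 higher, beside 140 and 120 of all members. Atp5b, the catalytic subunit of ATP synthase, was at 12445 and 12938 untreated against 11539 and 10216 at 8 h. Ndufb6 of complex I was at 726 and 825 untreated against 398 and 504 at 8 h, opposite to Ndufb4 of the same complex. The count of 5 lower was smaller with any 1 library left out, while the median ran from -0.08 to -0.06. Of 8 mitochondrially encoded genes 2 were higher and 1 lower, but for mt-Cytb, mt-Nd1 and mt-Nd4 the library values are not unique. Among 71 genes of mitochondrial ribosomal proteins, 2 were higher, Mrpl46 and Mrpl16 (457 and 424 untreated against 804 and 689 at 8 h), and 2 lower, with a median of 0.02. Translation factors (56 members, 0 higher and 3 lower) had a median of -0.01, and the lower ones included Eif3g, of initiation factor 3, at 2006 and 1939 untreated against 1561 and 1588 at 8 h. Aminoacyl-tRNA synthetases had 0 genes in either direction among 36 at an unadjusted p below 0.05, though their median of -0.12 was the lowest of the 39 lists and stayed below 0 (-0.02) with equal upper quartiles. Ribosome biogenesis genes, with Rbm19 and Shq1 among 3 higher and 4 lower of 90, had a median of 0.00.

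**Figure D4:**
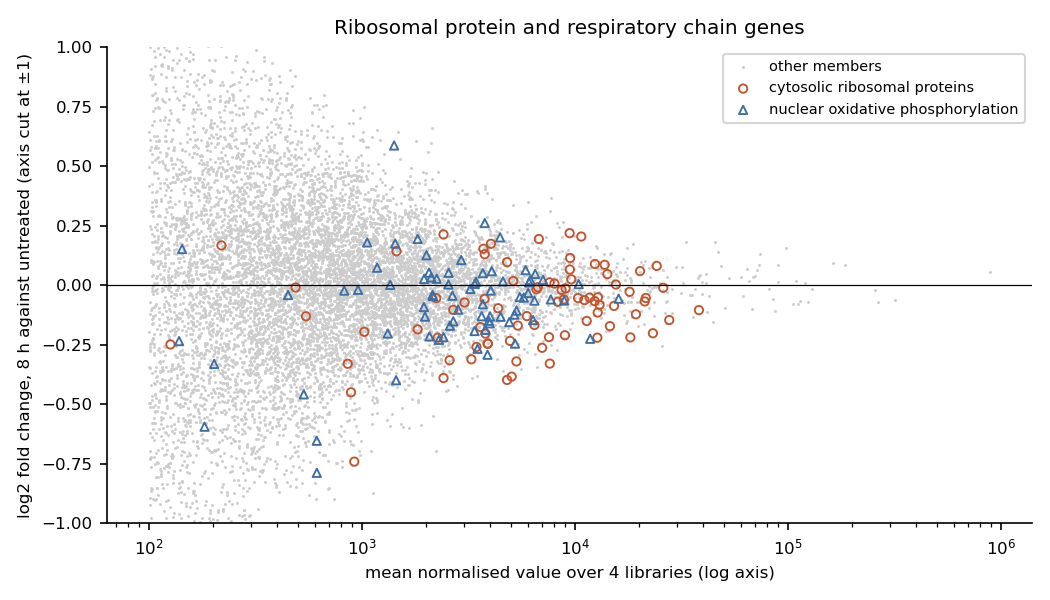
Log2 fold change of 8 h against untreated (y axis, limited to ±1) over the mean normalised value (log x axis) for genes of cytosolic ribosomal proteins (circles), nuclear oxidative phosphorylation (triangles) and other members (grey). More symbols lie below 0 than above it, 59 of 81 for ribosomal proteins and 47 of 75 for oxidative phosphorylation, and nearly all are within 0.5 of it.

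Genes that make and process RNA showed no common direction. In the counts of this and the following paragraphs, higher and lower mean an unadjusted p below 0.05 in limma, with 0 called. Each count is to be read beside 2.28% higher and 2.53% lower among all members, and most are of very few genes. Splicing factors counted 120 members, 2 higher and 5 lower, with a median of 0.03. The polymerase II machinery counted 106 members, 3 higher and 2 lower. Within the Integrator complex, which ends small nuclear and paused transcripts, Ints2 was at 266 and 269 untreated against 494 and 469 at 8 h, and Ints4 at 962 and 954 untreated against 634 and 636 at 8 h, opposite ways. RNA polymerases I and III counted 33 members, 1 higher and 1 lower, with Polr1d, shared by both, at 2015 and 2310.3 untreated against 1680.5 and 1476 at 8 h. The DEAD-box and DEAH-box helicases counted 47 members, 1 higher and 3 lower, Ddx39 and Dhx35 among the lower.

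The complexes that carry ASH2L and the enzymes that oppose them come next. Of 26 COMPASS subunits and H3K4 demethylases, 1 was higher and 1 lower. Ncoa6, a subunit of the KMT2C and KMT2D complexes, was at 847 and 938 untreated against 1282 and 1205 at 8 h (log2 fold change 0.48, SE 0.17). Bod1, a regulator of chromosome biorientation on this list, was at 1255 and 1438 untreated against 1006 and 932 at 8 h (log2 fold change -0.47, SE 0.17). The list ran from -0.54 to 0.48, with a median of 0.00. Other histone modifiers counted 86 members, 3 higher and 3 lower, with Prmt1 among the higher and the transcriptional repressor gene Bend3, at 380.2 and 256 untreated against 101 and 128 at 8 h among the lower. Their median of 0.07 kept its sign under each scaling and with each library left out, and was 0.05 without 8 h library A. Chromatin remodellers counted 57 members, 2 higher and 0 lower, and Ino80, the ATPase of the complex of that name, was at 357 and 319.9 untreated against 705 and 548 at 8 h. The 211 genes named Zfp for zinc fingers had 3 higher and 4 lower.

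Cell cycle genes counted 116 members, 3 higher and 2 lower. Cdkn2a, which encodes the inhibitors INK4A and ARF, was at 3926 and 3223 untreated against 4436 and 4705 at 8 h (log2 fold change 0.36, SE 0.12). For replication genes the counts were 61 members, 1 higher and 0 lower, where Tipin, of the fork protection complex, was at 551 and 453 untreated against 819 and 813 at 8 h, and its partner Timeless at 126 and 198 untreated against 82.5 and 73 at 8 h (unadjusted p = 0.108 in limma). DNA repair counted 63 members, 0 higher and 1 lower, and the lower gene was Msh3, of mismatch repair, at 344 and 325 untreated against 111 and 212 at 8 h.

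Among signalling genes, the immediate early list counted 50 members, 3 higher (6%) and 0 lower, beside 2.28% and 2.53% of all members. Sik1, a salt-inducible kinase, was at 68.1 and 96.3 untreated against 229 and 237 at 8 h, and Arc, an activity-induced cytoskeletal gene, at 177 and 211 untreated against 286 and 482 at 8 h. On the scale of the 4 h table Sik1 was at 57 and 81.2 untreated against 55.3 and 57.4 at 4 h. Toll-like receptor and NF-kB genes counted 54 members, 2 higher and 1 lower. Tlr2 was the lower one, and Irak2, a kinase downstream of such receptors, was at 599.9 and 669 untreated against 1014 and 906 at 8 h and so on the other side. For interferon-stimulated genes the counts were 54 members, 1 higher and 2 lower, with B2m, the light chain of MHC class I, at 28387 and 28134 untreated against 24890.2 and 25745 at 8 h opposite to Ifitm2. The TGF-beta and BMP pathway (44 members, 1 higher and 1 lower) had Gdf6 lower and Ltbp4, which stores latent TGF-beta in the matrix, at 1659.6 and 1479.6 untreated against 2294 and 1945 at 8 h. Its median of -0.07 was the same with equal sums and 0.02 with equal upper quartiles, beside 0.09 for all members under the latter. Growth factor receptors and kinases counted 80 members, 3 higher and 3 lower. The circadian clock had the highest median of the 39 lists, 0.17 over 18 genes. It stayed above 0 under each scaling and with each library left out, but was 0.08 without untreated library B and 0.11 without 8 h library A, and 0 of its genes had an unadjusted p below 0.05. Per3 was closest, at 365 and 629 untreated against 965 and 674 at 8 h.

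Among the fibroblast's own products, collagens and matrix genes counted 75 members, 4 higher and 2 lower (5.33% and 2.67%, beside 2.28% and 2.53% of all members), with a median of -0.01 and a middle 50% from -0.06 to 0.10. Sparc, a matrix glycoprotein at a mean of 162505, was at 155923 and 158412 untreated against 164963 and 170722 at 8 h, and Thbs1, thrombospondin, at 45718 and 47568 untreated against 41746 and 42043 at 8 h. The groups stood apart for both, by 1.07-fold and 1.11-fold. Integrin, actin and SRF-YAP genes counted 93 members, 8 higher (8.6%) and 4 lower (4.3%), beside the same shares of all members. Itga4, an integrin chain that binds fibronectin, was at 996 and 773 untreated against 1331 and 1373 at 8 h, and Itgb4, the chain of hemidesmosomes, at 397 and 258 untreated against 90.1 and 142 at 8 h. The 8 higher became fewer without either 8 h library or without untreated library B, and more without untreated library A. The median of 0.02 ran from -0.02 to 0.04 with 1 library left out. With equal upper quartiles it was 0.11, with 13 higher and 2 lower, and with equal sums 0.02, with 8 and 4. Under equal upper quartiles the median of all 9977 members was 0.09, with 522 higher and 108 lower. In limma without a mean-variance trend, 0 of the 93 were higher and 2 lower, beside 120 and 140 of all members.

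For membrane traffic the counts were small, and they are to be read beside 2.28% higher and 2.53% lower among all members. ESCRT and VPS genes counted 76 members, 2 higher and 6 lower, SNAREs and tethers 94 members, 2 higher and 5 lower, and Rab GTPases 38 members, 2 higher and 3 lower. Beside Vps13c and Snx9, the ESCRT-I gene Tsg101 was at 1529.9 and 1645 untreated against 1190.1 and 1179.8 at 8 h, and the ESCRT-III gene Chmp6 at 649 and 662 untreated against 460.2 and 317 at 8 h. Bet1, a SNARE of the way from endoplasmic reticulum to Golgi, was at 1059.8 and 858 untreated against 596 and 540.0 at 8 h. The medians were -0.02, -0.02 and -0.04. Each stayed below 0 with equal sums (-0.01, -0.02 and -0.04). With equal upper quartiles each was above 0 (0.08, 0.07 and 0.05), beside 0.09 for all members. The ESCRT and VPS median was 0.02 without untreated library B and 0.06 without 8 h library A. It was -0.05 without untreated library A and -0.01 without 8 h library B. The medians of SNAREs and tethers and of Rab GTPases stayed below 0 with each library left out. For motor proteins the counts were 44 members, 1 higher and 1 lower, with the kinesin light chain gene Klc2 at 139 and 176 untreated against 459 and 326 at 8 h.

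Protein turnover and metabolism gave few genes past an unadjusted p of 0.05. The proteasome counted 43 members, 2 higher and 1 lower, with Adrm1 lower and Psmd7, of the regulatory lid, at 4608 and 4253 untreated against 5079.8 and 5259 at 8 h. Cullin ligases, which include the Cereblon arm that dTAG-13 recruits, counted 48 members, 1 higher and 3 lower. Klhl12 was the higher one, at 200 and 271 untreated against 520 and 396 at 8 h. Crbn, the Cereblon gene itself, was at 406 and 602 untreated against 746 and 729.7 at 8 h (log2 fold change 0.58, SE 0.26). It was not among the genes with an unadjusted p below 0.05. Chaperones counted 79 members, 2 higher and 1 lower, and stress response genes 43 members, 2 higher and 0 lower. Atf4, the factor of the integrated stress response, was at 4129 and 4152 untreated against 4903 and 4847 at 8 h, a difference of 1.18-fold, and Srxn1, a target of NRF2, at 735 and 549 untreated against 959.7 and 904 at 8 h. Sterol and lipid synthesis (48 members, 1 higher and 1 lower) split between Srebf2, the regulator of sterol genes, at 949 and 713 untreated against 1139 and 1161 at 8 h, and the sterol enzyme gene Nsdhl at 764 and 582 untreated against 377 and 371 at 8 h. Glycolysis and hypoxia (44 members, 1 higher and 0 lower) had Gpi1, glucose phosphate isomerase, at 2561 and 2039 untreated against 3111 and 3083 at 8 h. Amino acid catabolism (33 members, 3 higher and 2 lower) had Acadsb, an acyl-CoA dehydrogenase, at 1855 and 1776 untreated against 2476 and 2316 at 8 h. N-glycan synthesis had 0 of 49 genes in either direction, with a median of 0.08.

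**Figure D5:**
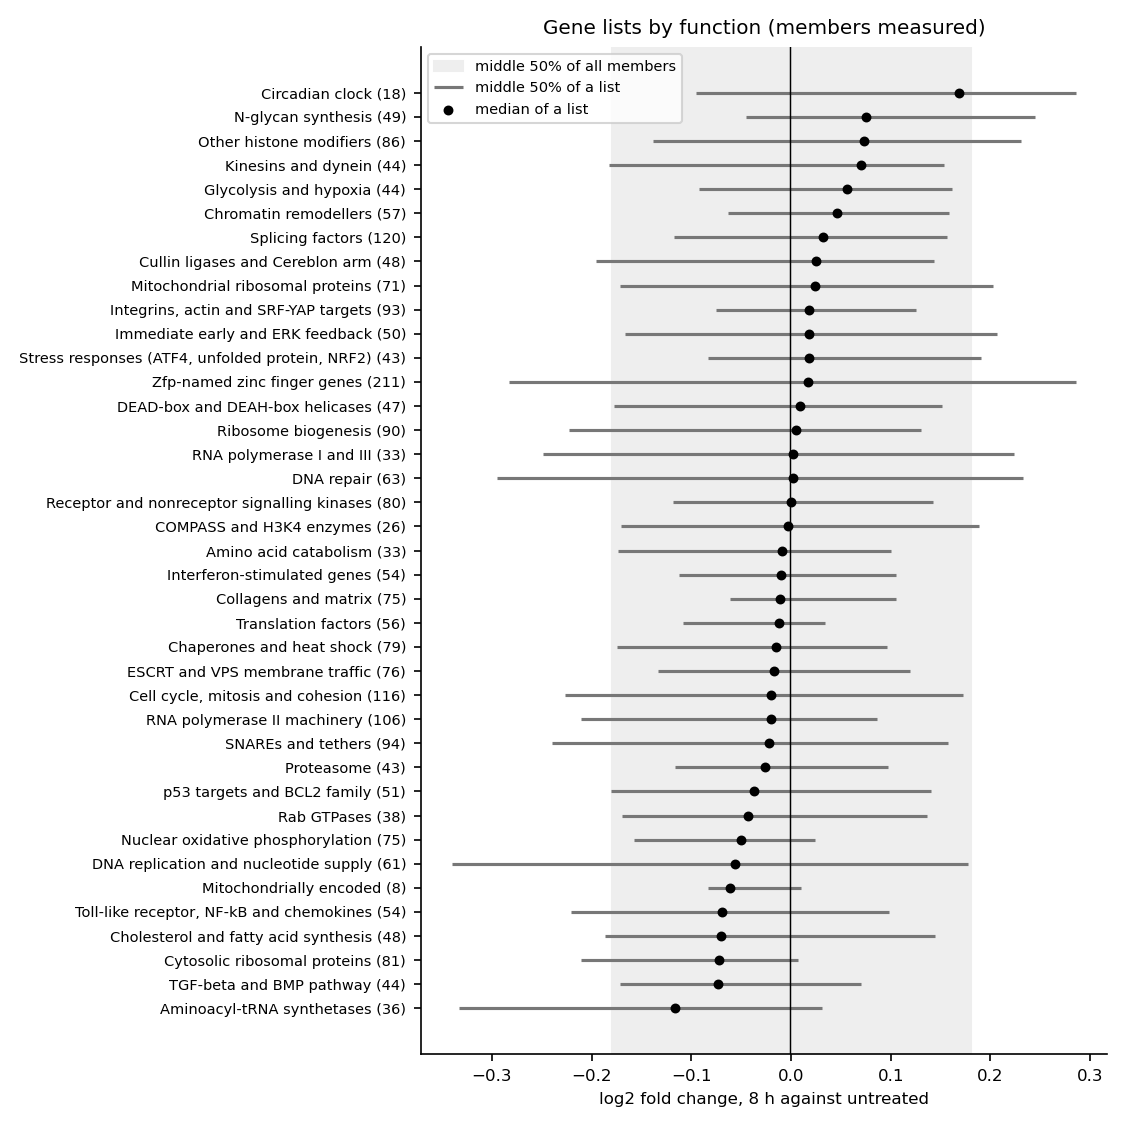
Median (points) and middle 50% (lines) of the log2 fold changes of 8 h against untreated in 39 gene lists, with the number of members measured in brackets and the middle 50% of all members shaded. The medians run from -0.12 for aminoacyl-tRNA synthetases to 0.17 for the circadian clock, and each lies inside the shaded range from -0.18 to 0.18.

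By gene type, 9545 of the members were protein coding, with a median log2 fold change of 0.00. Processed pseudogenes, intronless copies of mRNAs, stood at a median of 0.18 over 110 members, of which 33 were higher (30%) and 15 lower (13.6%) without overlap between groups, beside 17.4% and 17.5% of all members. At an unadjusted p below 0.05, 6 were higher (5.45%) and 0 lower, beside 2.28% and 2.53%. The 39 named after a ribosomal protein had a median of 0.26, opposite in sign to the ribosomal protein genes themselves. Rpl36-ps2 was at 1278 and 1161 untreated against 1507 and 1639.9 at 8 h, and Rpl31-ps8 at 2176 and 1479.6 untreated against 2498 and 2392 at 8 h. Reads from such copies and from their parent genes cannot always be told apart. The median over processed pseudogenes rested on untreated library B, and was 0.00 without it and 0.30 without untreated library A. The count of 6 higher was 19 without untreated library A, 1 without untreated library B and 0 without either 8 h library. Long intergenic RNAs, 60 members, had 1 higher and 2 lower with a median of 0.12, and antisense RNAs, 49 members, 1 and 0 with a median of -0.01.

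Medians by autosome lay between -0.02 for chromosome 13 and 0.05 for chromosome 17, and the X chromosome stood at -0.02 over 330 members. Among the autosomes, chromosome 8 had the largest share of lower genes at an unadjusted p below 0.05. There 26 were lower (4.66%) and 12 higher (2.15%) of 558 members, beside 2.53% and 2.28% of all members. Without overlap between groups, 22.2% of its members were lower and 15.9% higher, beside 17.5% and 17.4% of all members. On chromosome 19 these shares were 21.1% and 18.7%, and on the X chromosome 20.9% and 17.6%. Among protein-coding members, quartiles of the genomic span from the shortest to the longest had medians of 0.00, -0.02, 0.01 and 0.00. The shortest quartile, up to 11462 bases, had 82 lower (3.44%) and 57 higher (2.39%) of 2387 members at an unadjusted p below 0.05. The longest had 55 (2.31%) and 54 (2.26%) of 2386, beside 2.53% and 2.28% of all members.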

How the data were processed

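Labelled RNA of 6 samples (2 untreated, 2 at 8 h, 2 at 4 h) was sequenced. Per the labels and methods, the authors trimmed the reads, aligned them to mm10 with STAR, counted them per gene with featureCounts, and normalised and tested them with DESeq2, with ERCC spike-ins. The size factors in the deposited means matched median ratios over genes to within 0.0097%, so the values used here are not on a spike-in scale. Per the file headers, the deposited tables hold a mean normalised signal per gene, averaged over the 4 libraries of a comparison, and the authors' own fold changes, errors and p-values, which were not used. The methods name a 3′ end kit and the labels a total RNA kit, so levels were not compared between genes per length.

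The means carry 15 significant digits. Each was solved for the whole numbers of the libraries, with the untreated pair shared by the 4 h and 8 h tables identifying it. All 23783 genes with a mean above 0 had a solution and 23775 had a single one. For 6332 of 6332 members solved in each table alone, the untreated pair was equal. Where several sets fitted, that with the least spread within groups was taken. The whole numbers of some libraries skip values (up to 72 of the first 200), so no count model was run on them, and the depth in reads is unknown.

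Differences were tested with limma 3.58.1 in R 4.3.3 (lmFit, eBayes with a trend, two-sided) on log2(value + 1), for the 15223 genes whose mean reached 10. P-values were adjusted by Benjamini-Hochberg, and calls were made at an adjusted p below 0.05. The fit was tested on simulated data. The members and the 39 lists were chosen with earlier results of these data known. The genes named were the 20 of lowest unadjusted p per direction, 2 per list, Ash2l and the cell type markers. A further 12 genes, and the pseudogenes and gene lists singled out, were chosen after their values were seen. Counts at an unadjusted p below 0.05 under alternatives were also added after seeing the data. Gene positions are from GENCODE M21, promoters from RefSeq on GRCm38.p6. Some results are not reported here. Alternatives changed the scaling, pseudocount, filter, variance model or libraries.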

Additional observations from a re-analysis of the deposited data

How the results depend on the processing

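Under 15 alternatives the counts of members called stayed at 0 in both directions, except for 1 higher with voom weights (mt-Cytb, whose library values are not unique). Over all genes tested, limma without a trend called 53 higher and 42 lower and voom weights 1 higher. The members with an unadjusted p below 0.05 numbered 522 higher and 108 lower with equal upper quartiles, 120 and 140 without a trend, and from 61 to 330 higher and from 113 to 200 lower with 1 library left out, beside 227 and 252. The cause was not tested, beyond the fewer libraries of the last. The median log2 fold change of the members was 0.0928 with equal upper quartiles and 0.0012 with equal sums. It ran from -0.0076 to 0.0097 with 1 library left out. A lone library in a group was assumed to vary like the other group. Of 1678 values of the 112 genes in these comparisons 1677 kept their sign, and mt-Nd4 (18 sets of library values) turned to 0.0234 with equal upper quartiles. Of 39 list medians, 21 changed sign with equal upper quartiles, 1 with equal sums and 23 with some library left out, and 7 kept 1 sign. Equal upper quartiles moved each of the 39 upwards by nearly the same amount as the median of all members. No paired analysis was possible because the rebuilt libraries carry no replicate number. With 2 libraries a group and a median standard error of 0.49 at means from 100 to 300, the absence of calls does not show that genes did not differ.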
